A study of Homo sapiens with 14 samples.

Results

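The effect of KMT2D loss on the transcriptome of SCC23 cells was compared between cells kept in glucose and cells deprived of it, gene by gene, in RNA-seq counts. All 14 libraries of the study were used, chosen by their titles and by no measured value. SCC23 is an established human head and neck squamous cell carcinoma (HNSCC) line, and knockout lines were made from it by transfection of a plasmid that expresses Cas9, GFP and an sgRNA to KMT2D, with LacZ as the control target. KO1 and KO2 were the 2 KMT2D-KO lines, each made with its own sgRNA to KMT2D, so the KMT2D-KO libraries were repeats of those lines. The 4 groups were KMT2D-WT cells in high-glucose DMEM (+Glc, n = 3), KMT2D-KO cells in the same medium (n = 4), and KMT2D-WT (n = 3) and KMT2D-KO cells (n = 4) after 6 h without glucose (−Glc). By the labels, experiment 1 held 1 KMT2D-WT library and 1 library of each KO line in each glucose condition. Experiment 2 was labelled as 2 KMT2D-WT libraries and 1 library of each KO line, but its −Glc library labelled KO1 resembled KO2, as described below. Nothing in the labels says that the libraries came from separate cultures, so the p-values measure the spread between these libraries, which may be technical. Bulk counts cannot tell fewer cells of a type from less RNA per cell.

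KMT2D is a histone methyltransferase that places H3K4 monomethylation at enhancers and helps activate nearby genes. Cells that lose glucose slow their growth, and the unfolded protein response and the ATF4 branch of the integrated stress response switch on chaperones, amino acid transporters and feedback phosphatases. Immediate early genes such as the AP-1 factors and the CCN genes, which answer growth factors, stress and the YAP-TEAD pathway, are among the fastest to change.

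Total counts ranged from 15669154 to 62968057 per library. The 4 libraries of experiment 2 with glucose were counted by mate, so that a read pair entered their totals as 2. KMT2D itself was at 279, 266 and 271 CPM (counts scaled to the library total) in the KMT2D-WT +Glc libraries and at 182, 323, 184 and 373 CPM in KMT2D-KO +Glc cells. Libraries are listed here and throughout in the order of their labels, experiment 1 KO1, experiment 1 KO2, experiment 2 KO1, experiment 2 KO2 (for KMT2D-WT, experiment 1 first). Without glucose it was at 239, 233 and 231 CPM in KMT2D-WT and 19.9, 190.2, 152 and 145 CPM in KMT2D-KO cells. Without glucose every KMT2D-KO library was below every KMT2D-WT library, and only the KO1 library of experiment 1 was far below the rest. With glucose both libraries labelled KO1 were below every KMT2D-WT library and both labelled KO2 were above every one. The KMT2D-KO libraries together therefore lay on both sides of KMT2D-WT. Reads counted over the whole gene do not show whether an edit disrupts the protein. The difference between glucose conditions was not called for KMT2D (-0.84 ± 0.71, adjusted p = 0.483). In an edgeR fit with the KMT2D-WT libraries and only those labelled KO2 it was -0.92 and was called (adjusted p = 9.21e-05).

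The −Glc libraries of experiment 2 stood apart from the others in a way that touches every result. Their 2 libraries labelled KO1 and KO2 differed by a chi-square of 1.78 per gene, and their 2 KMT2D-WT libraries by 1.71, against 25.9 to 83.0 between the 4 other pairs of the same genotype, glucose condition and experiment. Of 36 genes that separated KO1 from KO2 at least 4-fold in the 3 other settings, none was nearer to KO1 in the −Glc library of experiment 2 labelled KO1, and both libraries lay at a median distance of 0.30 and 0.32 (log2) from KO2 and of 3.09 and 3.12 from KO1. None of these 36 genes was called for the difference between glucose conditions. They were picked for a large spread between the KO lines, which makes a call unlikely, so this says nothing about other genes. Which line a library holds and its glucose condition therefore cannot be fully told apart in the pooled fit. For all genes, the named genes and some of the lists, counts from other fits are given below as well. These fits used the libraries labelled KO2 alone, left out the 2 experiment 2 libraries labelled KO1, or summed the close pairs into 1 library each. All 10 squamous markers were detected, with summed levels of 2120 to 5116 CPM per library. The 6 hematopoietic markers, 1 of them at 0 counts throughout, summed to at most 0.290 CPM, the 4 endothelial markers to at most 4.11 and the 4 melanocyte markers to at most 3.58 CPM. The 8 fibroblast markers summed to 5.88 to 7.13 CPM in KMT2D-WT +Glc, 12.5 to 27.0 CPM in KMT2D-KO +Glc, 3.26 to 5.62 CPM in KMT2D-WT −Glc and 7.37 to 14.04 CPM in KMT2D-KO −Glc libraries.

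The KMT2D-KO effect (log2 fold change, KMT2D-KO minus KMT2D-WT) was estimated in each glucose condition in 1 edgeR fit, and the difference, the effect without glucose minus the effect with glucose, was tested for 18678 genes. In total 2105 genes (11.3%) had a difference at an adjusted p under 0.05, 884 above 0 (4.73%) and 1221 below 0 (6.54%). In the same fit the KMT2D-KO effect itself passed for 9100 genes without glucose (48.7%), with 24.2% of all genes higher and 24.5% lower in KMT2D-KO cells, and for 5235 with glucose (28.0%), with 14.8% higher and 13.3% lower. A difference of +1 means that the ratio of KMT2D-KO to KMT2D-WT without glucose was 2 times that with glucose. The genes were then sorted by where the effect passed. An effect only without glucose was found for 1274 genes (6.82%), of which 442 were higher (2.37%) and 832 were lower (4.45%) in KMT2D-KO cells. An effect only with glucose was found for 201 genes (1.08%), 119 of them lower and 82 higher in KMT2D-KO cells. It reversed for 104 genes (0.557%), of which 41 were lower in KMT2D-KO cells with glucose and higher without it, and 63 the opposite. Another 500 genes (2.68%) moved in the same direction in both, 461 of them further without glucose, and 26 passed in neither condition. Passing in 1 condition alone is no test of the difference. Of the 5073 genes that passed without glucose and not with it, 25.1% had a called difference, and of the 1208 that passed with glucose only, 16.6%.

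**Figure D1:**
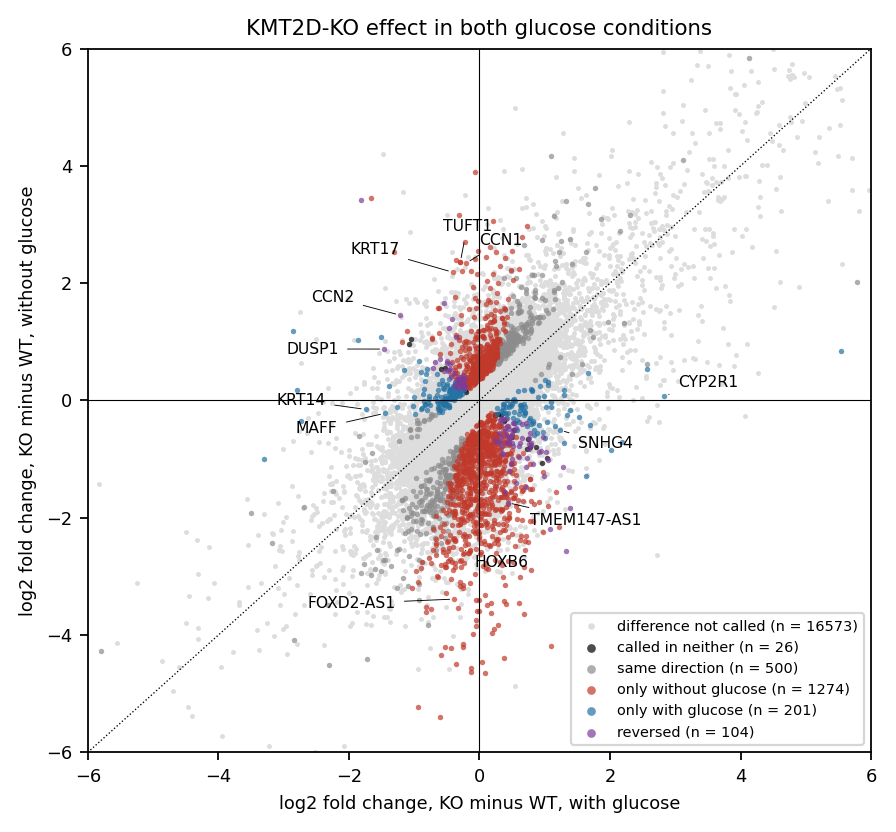
KMT2D-KO effect of each gene with glucose (x axis) and without glucose (y axis), both as log2 fold changes, with the dotted line marking equal effects and the 2105 genes with a called difference coloured by class. The 1274 red genes lie along the vertical axis and more of them below 0 (832) than above it (442), and 171 genes lie beyond the axis limits of 6.

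Experiments 1 and 2 share no library, and each gave its own estimate of the difference. Of the 2446 genes called in experiment 2 alone and fitted in both, 95.1% had the same sign in experiment 1, against 71.6% of all 18168 genes. The median difference in experiment 1 was 0.40 for the 1284 of these genes above 0 in experiment 2 and -0.95 for the 1162 below 0. Over all genes the estimates correlated at a Pearson r of 0.37, a description across genes, which are not replicates. No gene was called in experiment 1 alone, which has 1 KMT2D-WT library per condition. The count of 2105 moved with single libraries. It was between 901 and 1246 without any 1 of the 3 KMT2D-WT +Glc libraries, between 788 and 951 without any 1 of the 3 KMT2D-WT −Glc libraries, 1005 and 1016 without the −Glc library of experiment 2 labelled KO1 or KO2, and 4230 without the −Glc library of experiment 1 labelled KO1. With the libraries labelled KO2 alone 4349 genes were called, among them 93.5% of the 2105. Without the 2 experiment 2 libraries labelled KO1 there were 583 genes, and with the close pairs summed 258, every one of them among the 2105. Of the 101 genes with a called difference named below, 28 were called also with the close pairs summed. Without the 2 experiment 2 libraries labelled KO1 44 were called, and with the libraries labelled KO2 alone 100. The 28 are called retained in the text.

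**Figure D2:**
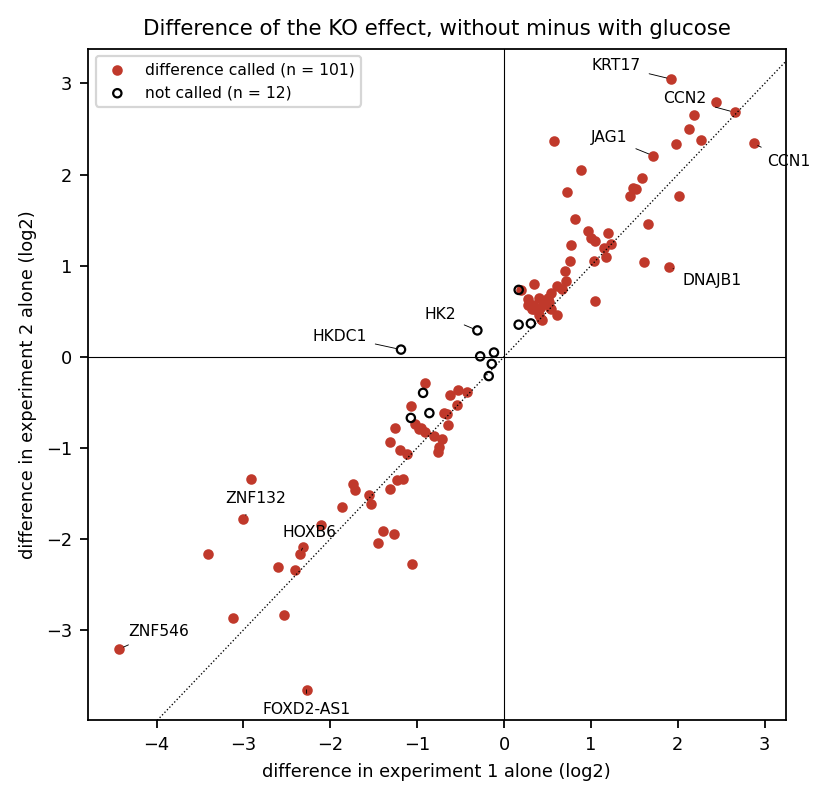
Difference of the KMT2D-KO effect (log2, without minus with glucose) of the named genes, estimated from the libraries of experiment 1 alone (x axis) and of experiment 2 alone (y axis). All 101 called genes have the same sign in both, a condition of the naming for 28 of them. The calls come from a fit that pools both experiments, and all 2084 called genes fitted in both have the same sign, so this is no independent support. Among the 12 that were not called HK2, HKDC1, SLC16A1 and FANCI lie below 0 in experiment 1 and above it in experiment 2.

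The genes that reversed from lower to higher in KMT2D-KO cells included immediate early and stress-response genes. CCN2, a matricellular growth factor and YAP-TEAD target (chr6:131948176-131951372, GRCh38), was at 143, 214 and 131 CPM in KMT2D-WT and 72.4, 70.0, 75.1 and 60.2 CPM in KMT2D-KO cells with glucose. Without glucose it was at 198, 187 and 193 CPM in KMT2D-WT and 767, 496, 469 and 476 CPM in KMT2D-KO cells. Every KMT2D-KO library was below every KMT2D-WT library with glucose and above every one without it. The effect was -1.22 ± 0.18 (log2, SE) with glucose and 1.45 ± 0.19 without, a difference of 2.67 ± 0.26 (adjusted p = 1.75e-04). DUSP1, the dual-specificity phosphatase that switches off MAP kinases (chr5:172768096-172771195), had levels of 61.2, 57.0 and 47.4 CPM in KMT2D-WT and 24.5, 26.4, 19.3 and 15.4 CPM in KMT2D-KO cells with glucose. They were 149, 121 and 111 CPM and 359.6, 251, 195 and 201 CPM without glucose, again with no overlap in either condition (difference 2.34 ± 0.20, adjusted p = 6.90e-05). PPP1R15A, also called GADD34, which directs the phosphatase that ends the integrated stress response (chr19:48872421-48876058), had an effect of -0.54 ± 0.13 with glucose and 1.65 ± 0.14 without it (adjusted p of the difference = 6.90e-05). Its levels were 121, 92.6 and 77.9 CPM and 90.0, 84.3, 64.6 and 49.1 CPM with glucose in KMT2D-WT and KMT2D-KO cells, where the groups overlapped between experiments but not within one, and 275, 202 and 212 CPM and 650.3, 945, 701 and 674 CPM without glucose, with no overlap. GADD45B, a stress-induced growth arrest gene, had a difference of 1.81 ± 0.17, and PTHLH, which encodes parathyroid hormone-related protein, one of 1.71 ± 0.18, and these 5 genes were retained. XBP1, the transcription factor of the unfolded protein response, also reversed (-0.50 ± 0.15 with glucose, 0.68 ± 0.15 without, adjusted p of the difference = 0.00527), as did JUP, the desmosomal plakoglobin (-0.31 ± 0.10 and 0.40 ± 0.10, adjusted p = 0.00840). XBP1 kept its call without the 2 experiment 2 libraries labelled KO1 but not with the close pairs summed, and JUP was called in neither.

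**Figure D3:**
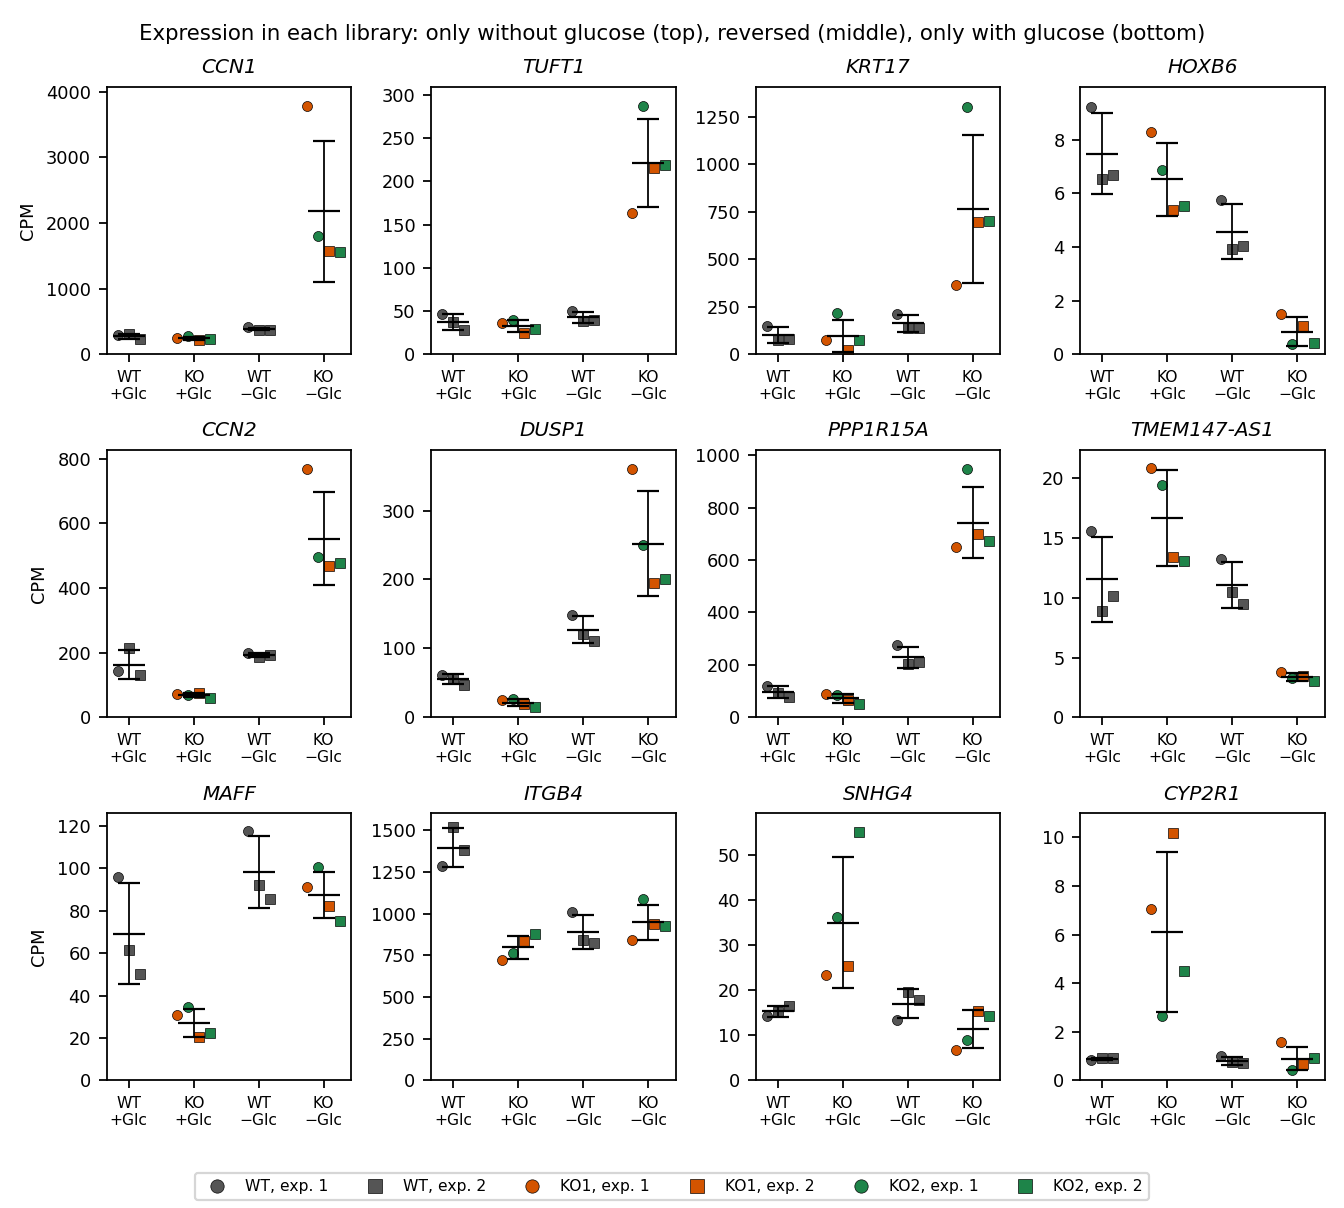
CPM of 12 genes in each library (circles experiment 1, squares experiment 2, colours the line named in the label), with mean and SD of the 4 groups (n = 3 for KMT2D-WT, n = 4 for KMT2D-KO). CCN2 and DUSP1 are below KMT2D-WT in KMT2D-KO cells with glucose and above it without, CCN1 and TUFT1 separate only without glucose, and MAFF, ITGB4 and SNHG4 separate with glucose.

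The stretches just before the start sites of CCN2, DUSP1 and PPP1R15A are shown because these retained, reversed genes carry well-known regulatory letters there (RefSeq sequences, GRCh38.p14, 5′ to 3′ on the strand of the gene). Capitals mark the match whose position the line gives. The CCN2 stretches for the matches at 104 and 95 bases overlap, and each holds the other match in lower case. GGAATG is the TEAD motif and TGACGTCA the cyclic AMP response element (CRE) bound by the CREB and ATF families.
CCN2, chr6:131951524-131951553, − strand, motif starting 169 bases before the start: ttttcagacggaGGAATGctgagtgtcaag
CCN2, chr6:131951459-131951488, − strand, 104 bases before: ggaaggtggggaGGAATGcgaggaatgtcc
CCN2, chr6:131951450-131951479, − strand, 95 bases before: ggaggaatgcgaGGAATGtccctgtttgtg
DUSP1, chr5:172771302-172771331, − strand, 125 bases before: ggcagggcgggTGACGTCAccgccccgtca
PPP1R15A, chr19:48872352-48872381, + strand, 58 bases before: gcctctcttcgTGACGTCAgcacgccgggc

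The motifs were searched on both strands in the 250 bases before each start, and none of the matches printed overlapped another. TGACGTCA stood in 4 of the 26 promoters of reversed genes with a difference above 0 that were found in the table (15.4%), in 0 of 31 of reversed genes below 0, and in 254 of the 8048 promoters of all tested genes found there (3.16%), or 1.82% of all 22114 promoters in the table. Among genes higher in KMT2D-KO cells only without glucose it stood in 7 of 225 (3.11%). The TEAD letters GGAATG, on either strand, stood in 3 of the 26 (11.5%) and in 22 of the 225 (9.78%), against 9.43% of the tested genes, and the AP-1 letters TGACTCA in 0 of 26 and 10 of 225 (4.44%), against 2.85%. The E-box letters CACGTG stood in 3 of the 26 (11.5%), against 8.87%. The shares in all promoters of the table were 12.1% for GGAATG, 4.36% for TGACTCA and 6.34% for CACGTG. A match is a string of letters and shows no binding.

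The reversed genes below 0 were higher than KMT2D-WT with glucose and lower without it. TMEM147-AS1, an antisense long noncoding RNA (chr19:35540738-35546029), was at 20.8, 19.4, 13.4 and 13.1 CPM in KMT2D-KO +Glc cells and 3.76, 3.25, 3.46 and 3.01 CPM in KMT2D-KO −Glc cells, while KMT2D-WT libraries were at 15.6, 8.88 and 10.1 CPM and 13.2, 10.5 and 9.45 CPM. Without glucose every KMT2D-KO library was below every KMT2D-WT library, and with glucose the groups overlapped between experiments (difference -2.18 ± 0.17, adjusted p = 4.49e-05). RBM12B, an RNA-binding protein gene, went from 37.3 ± 4.58 CPM (SD, n = 4) in KMT2D-KO cells with glucose to 8.82 ± 1.94 CPM (SD, n = 4) without, against 29.7 ± 5.29 and 27.5 ± 5.19 CPM (SD, n = 3) in KMT2D-WT cells, a difference of -1.95 ± 0.13. TIGD1 had a difference of -1.71 ± 0.26, and these 3 were retained. PRR7-AS1, an antisense RNA, had a difference of -1.80 ± 0.40, called with the libraries labelled KO2 alone but not with the close pairs summed. GINS1, a subunit of the replicative helicase, reversed in the same way (0.48 ± 0.14 with glucose and -0.61 ± 0.14 without), and so did SNHG3, a small nucleolar RNA host gene (0.36 ± 0.12 and -0.91 ± 0.12), which was retained. Counting was unstranded, so reads from an antisense RNA and its partner cannot be told apart where they overlap.

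A further 442 genes were higher in KMT2D-KO cells only without glucose, among them matricellular and stress genes. CCN1, the close relative of CCN2 (chr1:85580761-85584589), was at 291, 306 and 236 CPM in KMT2D-WT and 254, 274, 223 and 234 CPM in KMT2D-KO cells with glucose, where the groups overlapped. Without glucose it was at 412, 372 and 373 CPM in KMT2D-WT and 3781, 1801, 1577 and 1558 CPM in KMT2D-KO cells, and the KO1 library of experiment 1 was the highest. The difference was 2.54 ± 0.30 (adjusted p = 5.87e-04) and CCN1 was retained. TUFT1, which encodes tuftelin (chr1:151540305-151583583), was at 46.9, 37.3 and 28.4 CPM in KMT2D-WT and 36.6, 40.1, 24.7 and 28.7 CPM in KMT2D-KO cells with glucose. It reached 163, 287, 215 and 219 CPM in KMT2D-KO cells without glucose against 49.6, 38.7 and 39.5 CPM in KMT2D-WT cells, a separation of every library (difference 2.65 ± 0.24, adjusted p = 8.35e-05, retained). GDF15, a secreted stress cytokine, rose from 2.65 ± 0.886 CPM (SD, n = 3) in KMT2D-WT to 12.4 ± 2.85 CPM (SD, n = 4) in KMT2D-KO cells without glucose, with 0.866 ± 0.529 and 0.809 ± 0.497 CPM with glucose (difference 2.47 ± 0.45, adjusted p = 0.00616). KRT17 and KRT16, keratins of stressed and proliferating epidermis, had differences of 2.60 ± 0.65 and 2.34 ± 0.48. KRT17 was at 366, 1303, 697 and 699 CPM in KMT2D-KO −Glc cells and 215, 138 and 137 CPM in KMT2D-WT −Glc cells, but its KMT2D-KO +Glc libraries spread from 24.0 to 219.9 CPM, and the call was lost in 8 of 14 fits with 1 library left out. Neither keratin was retained.

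Across the AP-1 and immediate early list, 24 of 27 measured members had a difference above 0, and 10 were called above 0 and 2 below 0. Over all genes 4.73% were called above 0 and 6.54% below 0, the shares against which each list count of the pooled fit below is to be read. List counts of the other fits are to be read against their own totals. With the libraries labelled KO2 alone 1973 genes were called above 0 and 2376 below, of 19165 tested. With the close pairs summed it was 66 and 192 of 21043. Without the 2 experiment 2 libraries labelled KO1 it was 177 and 406 of 18289. The median difference of the list was 0.55, against -0.0021 over all 18678 genes. KLF4, a transcription factor of epithelial differentiation, rose in both conditions, 1.77 ± 0.19 with glucose and 3.63 ± 0.20 without. Its KMT2D-KO −Glc libraries were at 109.8, 191, 188 and 180.1 CPM against 13.4, 14.3 and 13.6 CPM in KMT2D-WT −Glc cells, and its +Glc libraries were at 23.1, 29.3, 25.99 and 24.1 CPM and 9.66, 7.07 and 5.61 CPM, with no overlap in either condition. ATF3, a stress-induced member of the ATF family, rose by 0.55 and 2.08, a difference of 1.53 ± 0.16 (adjusted p = 2.77e-04). Both were retained. MYC, the growth regulator (1.34 ± 0.11), SRF, the serum response factor (0.78 ± 0.21), JUND (0.55 ± 0.15), JUNB (0.74 ± 0.18) and KLF6 (0.70 ± 0.10) were called above 0 as well, and MAFF is described with the genes that differed with glucose only. The 2 called members below 0 were BTG2, an antiproliferative gene (-1.199 ± 0.32), and IER2 (-0.99 ± 0.23), and with the close pairs summed 7 members, MYC and KLF6 included, were called above 0 and 0 below.

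In the list of YAP, TEAD and their targets 7 of 24 members were called above 0 and 1 below (4.73% and 6.54% of all genes). The median KMT2D-KO effect of the list was -0.23 with glucose and 0.07 without. CCN1, CCN2 and GADD45B belong to it, as does TEAD2, a DNA-binding partner of YAP, which rose by 1.16 with glucose and 2.37 without. AMOTL2, a YAP-binding scaffold, reversed from -0.49 ± 0.17 to 0.64 ± 0.17, NUAK2, a kinase of the AMPK family (1.18 ± 0.20), and TEAD4 (0.63 ± 0.11) were the other members above 0, and FJX1 the member below (-0.72 ± 0.19). With the close pairs summed 4 members were called above 0. Among 23 phosphatases and feedback regulators of ERK, 3 were called above 0 and 2 below, against 4.73% and 6.54% of all genes. DUSP10, a phosphatase of stress-activated kinases, was at 16.6 ± 5.19 CPM (SD, n = 4) in KMT2D-KO and 3.29 ± 1.12 CPM (SD, n = 3) in KMT2D-WT cells without glucose, with 3.96 ± 0.702 and 2.72 ± 0.298 CPM with glucose (difference 1.72 ± 0.23). PHLDA1 rose only without glucose (0.15 ± 0.08 and 1.195 ± 0.08), and DUSP1, DUSP10 and PHLDA1 were retained. SPRY2, a receptor tyrosine kinase feedback inhibitor, went the other way, with an effect of 1.42 ± 0.16 with glucose and 0.45 ± 0.16 without.

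Some genes of amino acid and protein stress were raised further in KMT2D-KO cells without glucose. The 38 ATF4 and amino acid genes had a median effect of 0.56 with glucose and 0.86 without. Of these, 7 were called above 0 and none below (4.73% and 6.54% of all genes). Besides PPP1R15A, GDF15 and ATF3 these were SESN2, a leucine sensor (0.77 ± 0.18), EIF4EBP1, a translation repressor (0.56 ± 0.13), SLC3A2, the heavy chain of amino acid exchangers (0.61 ± 0.18), and SLC38A2. SLC38A2, an amino acid transporter, had an effect of 1.10 ± 0.22 without glucose and 0.06 ± 0.22 with it, and its call was lost in 11 of 14 fits with 1 library left out. Of 35 genes of endoplasmic reticulum chaperones and the unfolded protein response, 6 were called above 0 and none below (4.73% and 6.54% of all genes). HSPA5, the chaperone BiP, was at 654, 1390.0, 1409 and 1414 CPM in KMT2D-KO −Glc cells and 619, 663 and 674 CPM in KMT2D-WT −Glc cells. The KO1 library of experiment 1 lay among the KMT2D-WT libraries and the other 3 were above all of them. With glucose the levels were 452 ± 46.5 CPM (SD, n = 4) and 459 ± 20.1 CPM (SD, n = 3), and the difference was 0.93 ± 0.26 (adjusted p = 0.0396), lost in 11 of 14 fits with 1 library left out. HERPUD1, which acts in the degradation of misfolded proteins, had a difference of 1.29 ± 0.34 and DNAJB9, an HSPA5 co-chaperone, one of 1.40 ± 0.36, lost in 9 and 8 of those fits. Of 18 heat shock genes 5 were called above 0 and none below, against the same shares of all genes. DNAJB1, the co-chaperone of cytosolic HSP70, was at 1416, 510.2, 471 and 473 CPM in KMT2D-KO −Glc cells and 253, 220.1 and 224 CPM in KMT2D-WT −Glc cells, where the KO1 library of experiment 1 was the highest. Its difference of 1.33 ± 0.37 was called with an adjusted p of 0.0391 and lost in 12 of 14 fits with 1 library left out. BAG3, an HSP70 co-chaperone (0.78 ± 0.15), HSF1, the heat shock transcription factor (0.53 ± 0.12), HSPH1 (0.48 ± 0.13) and HSP90AB1 (0.44 ± 0.09) were the other called members. With the close pairs summed no gene of the chaperone and heat shock lists was called, while with the libraries labelled KO2 alone 15 of the former and 7 of the latter were called above 0.

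Of the 25 lists plotted the keratins had the largest median difference, 1.07 over 16 measured members. Of these, 6 were called above 0 and none below (4.73% and 6.54% of all genes). The median KMT2D-KO effect was 0.28 with glucose and 1.76 without. KRT80 rose in both conditions (0.71 ± 0.19 and 1.84 ± 0.19), whereas KRT14, the keratin of basal cells, was lower in KMT2D-KO cells with glucose only. KRT14, KRT16 and KRT17 and their pseudogenes share much of their sequence, so how reads were divided among them is uncertain. KRT8 (0.72 ± 0.18) and KRT18 (0.78 ± 0.21), the keratins of simple epithelia, were called too. Of the 10 squamous markers, which include KRT14, KRT17 and ITGB4, all had a difference above 0, and their summed level was 3231 to 3732 CPM in KMT2D-WT +Glc, 2120 to 3139 CPM in KMT2D-KO +Glc, 3015 to 3418 CPM in KMT2D-WT −Glc and 3015 to 5116 CPM in KMT2D-KO −Glc libraries. Their part in the keratin result was not tested. No keratin was called with the close pairs summed, and 9 were called above 0 with the libraries labelled KO2 alone. Of 22 squamous transcription factors 3 were called above 0 and 2 below (4.73% and 6.54% of all genes). KLF5, a regulator of basal epithelial cells, rose only without glucose (-0.24 ± 0.22 and 0.99 ± 0.23), while FOXE1, a forkhead factor, fell further without glucose, from 29.3 ± 2.03 to 13.6 ± 0.811 CPM with glucose and from 19.9 ± 1.44 to 3.20 ± 0.399 CPM without (KMT2D-WT to KMT2D-KO, SD, n = 3 and n = 4, difference -1.56 ± 0.16, retained). Of 29 adhesion genes 3 were called, all above 0 (4.73% of all genes), namely ITGB4, JUP and CDH3, which encodes P-cadherin (0.15 ± 0.09 and 0.69 ± 0.09). Of 16 HLA class I and peptide loading genes 4 were called, all above 0 (4.73% of all genes), namely HLA-E (0.59 ± 0.12), HLA-C (0.53 ± 0.11), HLA-B (0.49 ± 0.11) and TAP1. None was called with the close pairs summed. The HLA class I genes have near-identical stretches, so the division of reads among them is uncertain.

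**Figure D4:**
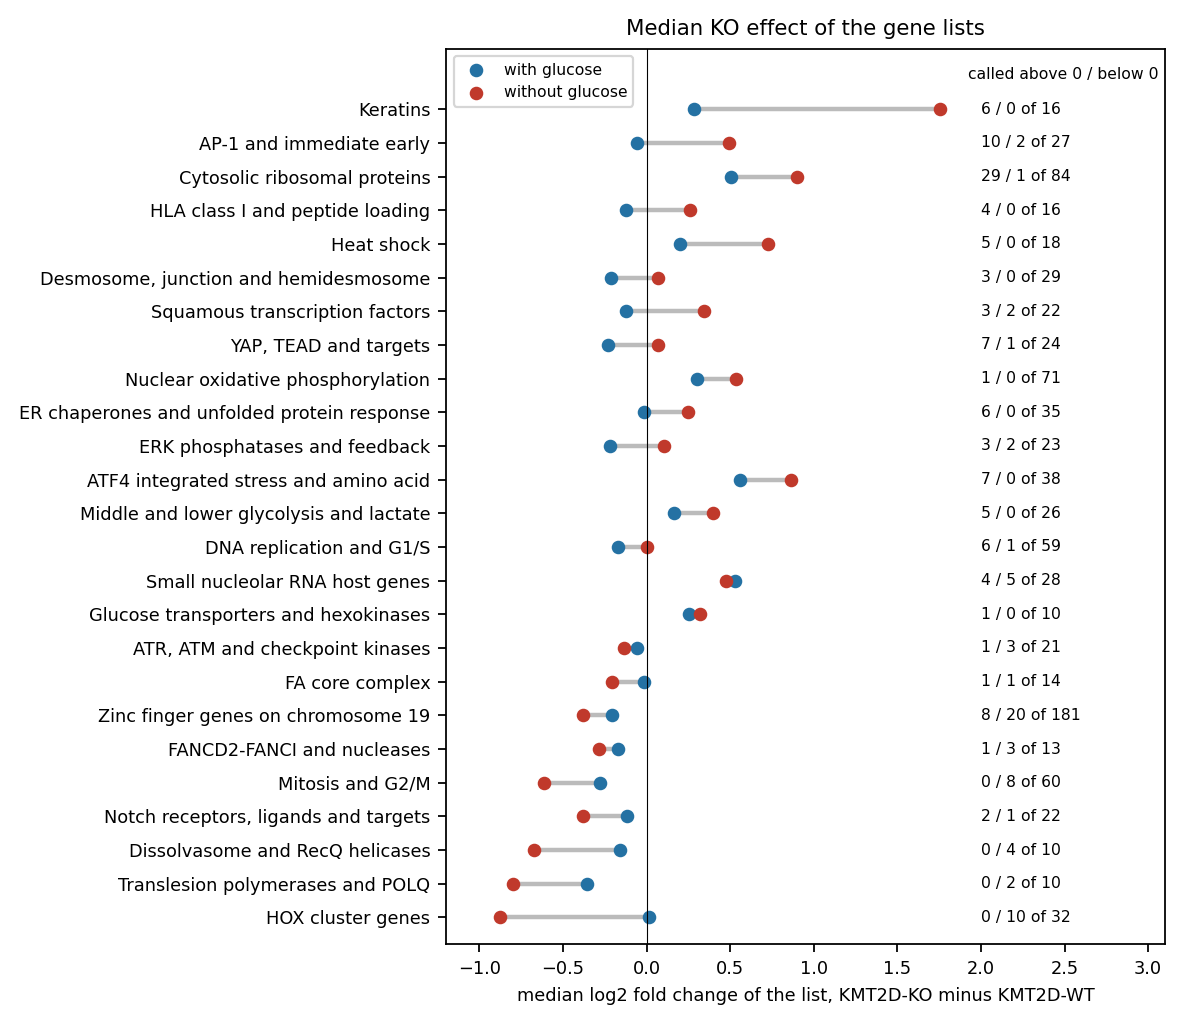
Median KMT2D-KO effect (log2) of 25 gene lists with glucose (blue) and without glucose (red), ordered by their median difference, with the number of members called above 0 and below 0 of those tested at the right. The keratin list moves from 0.28 to 1.76 and the HOX list from 0.01 to -0.88.

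The KMT2D-KO effect passed only with glucose for 201 genes. MAFF, a small MAF transcription factor (chr22:38200767-38216507), was at 95.8, 61.4 and 50.3 CPM in KMT2D-WT and 30.7, 34.8, 20.6 and 22.2 CPM in KMT2D-KO cells with glucose, with no overlap. Without glucose it was at 117, 91.8 and 85.4 CPM and 91.1, 101, 82.3 and 75.3 CPM, where the groups overlapped (difference 1.23 ± 0.14, adjusted p = 3.69e-04, retained). ITGB4, the integrin β4 chain of hemidesmosomes (chr17:75721328-75757818), was at 1285, 1517 and 1382 CPM in KMT2D-WT and 724, 762, 833 and 877 CPM in KMT2D-KO cells with glucose. Without glucose the levels of 1007, 844 and 823 CPM and 841, 1089.7, 937 and 924 CPM overlapped, and the KMT2D-WT libraries were lower than with glucose (difference 0.84 ± 0.13, adjusted p = 0.00246, retained). With glucose KRT14 was at 217 ± 30.3 CPM (SD, n = 3) in KMT2D-WT against 78.4 ± 45.5 CPM (SD, n = 4) for KMT2D-KO, and it was at 201 ± 24.2 and 185 ± 49.6 CPM without (difference 1.59 ± 0.45, adjusted p = 0.0400). MISP, an actin-bundling protein of the mitotic spindle, was also lower only with glucose, with a difference of 1.63 ± 0.41, and the calls of KRT14 and MISP were each lost in 8 of 14 fits with 1 library left out. KRT16P6, a keratin pseudogene, had a difference of 1.68 ± 0.37. TAP1, a peptide transporter of the HLA class I pathway, was lower in KMT2D-KO cells with glucose only (-0.45 ± 0.09 and 0.07 ± 0.10).

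Higher in KMT2D-KO cells with glucose only were CYP2R1, a vitamin D 25-hydroxylase, and several noncoding RNAs. CYP2R1 (chr11:14877440-14892231) was at 0.844, 0.932 and 0.912 CPM in KMT2D-WT and 7.07, 2.66, 10.2 and 4.505 CPM in KMT2D-KO cells with glucose and at 0.997, 0.741 and 0.705 CPM and 1.57, 0.449, 0.664 and 0.921 CPM without. The KO1 libraries with glucose were above the KO2 libraries, and the difference was -2.75 ± 0.64 (adjusted p = 0.0178), not retained. SNHG4, a small nucleolar RNA host gene, was at 23.3, 36.2, 25.3 and 55.1 CPM in KMT2D-KO and 14.2, 15.2 and 16.6 CPM in KMT2D-WT cells with glucose, without overlap, and at 6.64, 9.03, 15.3 and 14.4 CPM and 13.4, 19.7 and 17.8 CPM without glucose (difference -1.74 ± 0.34, adjusted p = 0.00833). OGFRP1, a noncoding RNA, was at 10.7 ± 1.29 CPM (SD, n = 4) against 4.89 ± 0.745 CPM (SD, n = 3) with glucose, and at 4.07 ± 0.709 against 5.40 ± 1.40 CPM without (difference -1.60 ± 0.26, retained). ICOSLG, the ligand of the T cell receptor ICOS, had a difference of -1.52 ± 0.35, and SNHG19 one of -1.41 ± 0.40, lost in 11 of 14 fits with 1 library left out. Of 28 small nucleolar RNA host genes 4 were called above 0 and 5 below (4.73% and 6.54% of all genes). Their median effect was 0.53 with glucose and 0.48 without. EPB41L4A-AS1 was higher in KMT2D-KO cells only without glucose (1.34 ± 0.15), opposite to SNHG3 and SNHG4.

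The largest class held the 832 genes that were lower in KMT2D-KO cells only without glucose. FOXD2-AS1, a long noncoding RNA (chr1:47432133-47434641), was at 9.61, 8.18 and 8.25 CPM in KMT2D-WT and 2.57, 0.561, 0.427 and 0.544 CPM in KMT2D-KO cells without glucose and at 9.24, 8.14 and 8.93 CPM and 9.46, 4.79, 8.76 and 4.23 CPM with it. The groups did not overlap without glucose and overlapped with it (difference -3.00 ± 0.60, adjusted p = 0.00944, not retained). GVQW3 had a mean of 27.1 ± 2.25 CPM (SD, n = 3) in KMT2D-WT cells without glucose and fell to 3.99 ± 1.42 CPM (SD, n = 4) in KMT2D-KO cells, with 19.1 ± 4.42 and 14.6 ± 3.69 CPM with it (difference -2.42 ± 0.27, retained). YPEL4, with a difference of -2.37 ± 0.37, was retained as well. Its effect was -1.71 ± 0.28 without glucose. With glucose it was 0.66 ± 0.24 and just missed the threshold (adjusted p = 0.0535). There every KMT2D-KO library (5.53, 5.95, 4.36 and 6.17 CPM) was above every KMT2D-WT library (3.88, 2.99 and 3.38 CPM). HOXB6, a homeobox transcription factor (chr17:48595751-48604992), was at 5.76, 3.91 and 4.05 CPM in KMT2D-WT and 1.504, 0.393, 1.04 and 0.419 CPM in KMT2D-KO cells without glucose, and at 9.24, 6.54 and 6.67 CPM and 8.29, 6.87, 5.40 and 5.52 CPM with it (difference -2.25 ± 0.42, adjusted p = 0.00702, retained). HOXB-AS3, a noncoding RNA of the same cluster whose interval contains HOXB6, had a difference of -2.97 ± 0.53, and its reads cannot be told apart from those of its neighbours by strand.

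HOX genes, which hold positional identity and are classical targets of the KMT2 and Polycomb groups, were lower in KMT2D-KO cells without glucose in many cases. Of 32 measured HOX genes 10 were called below 0 and none above, against 6.54% of all genes below 0. Their median effect was 0.01 with glucose and -0.88 without. The KMT2D-KO effect itself passed for 20 members that were lower and none that were higher without glucose, and for 4 lower and 5 higher with glucose, against 24.5% of all genes lower without glucose and 13.3% with it. HOXA5 fell by 1.83, HOXB5 by 2.12 and HOXD9 by 1.68 on the log2 scale without glucose, with effects of -0.04 ± 0.23, -0.43 ± 0.24 and -0.14 ± 0.23 with it. These are lowly expressed genes, with HOXA5 at 3.90, 4.09 and 4.37 CPM in KMT2D-WT and 1.19, 1.68, 0.996 and 0.963 CPM in KMT2D-KO −Glc libraries. In the stricter fits 2 members were called below 0 without the experiment 2 libraries labelled KO1 and 1 with the close pairs summed, and 14 with the libraries labelled KO2 alone.

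In the Notch list 2 members were called above 0 and 1 below, of 22, against 4.73% and 6.54% of all genes. JAG1, a Notch ligand, was at 95.3, 371, 364 and 358 CPM in KMT2D-KO and 30.7, 36.9 and 36.5 CPM in KMT2D-WT cells without glucose and at 50.9, 65.5, 53.7 and 63.7 CPM and 25.6, 31.7 and 22.6 CPM with it. It was higher in KMT2D-KO cells in both conditions, and the KO1 library of experiment 1 was the lowest of the 4 without glucose (difference 2.01 ± 0.46, adjusted p = 0.0171). NOTCH2, a receptor, went from 255 ± 28.3 CPM (SD, n = 3) in KMT2D-WT to 123 ± 30.7 CPM (SD, n = 4) in KMT2D-KO cells without glucose and from 263 ± 28.4 to 231 ± 44.8 CPM with it (difference -0.85 ± 0.21). MAML2, a Notch coactivator, passed in neither condition alone (-0.32 ± 0.12 and 0.31 ± 0.13) although the difference was called. No gene of the Notch list was called with the close pairs summed. With the libraries labelled KO2 alone 3 were called above 0 and 5 below. Among 181 zinc finger genes of chromosome 19, many of which are KRAB repressors of transposable elements, 20 were called below 0 and 8 above (6.54% and 4.73% of all genes). Without glucose 75 of them were lower and 15 higher in KMT2D-KO cells, and with glucose 29 and 2. Over all genes 24.5% were lower and 24.2% higher without glucose, and 13.3% and 14.8% with it. ZNF546 had the largest difference of the list (-3.54 ± 0.71) at levels of at most 1.07 ± 0.515 CPM (mean and SD), and ZNF132 one of -2.21 ± 0.43. With the close pairs summed 3 members, ZNF132 among them, were called below 0 and 1 above, and with the libraries labelled KO2 alone 32 below and 22 above.

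DNA repair genes of the Fanconi anemia (FA) and BRCA pathway, which repairs interstrand crosslinks, were called for the difference in a few cases in the pooled fit. The libraries labelled KO2 alone gave more calls, as they did over all genes (2376 below 0 and 1973 above, of 19165). In that fit 5 of the 14 FA core complex genes were called below 0 and 1 above. Of the 13 genes of the clamp and its nucleases it called 5 below and 3 above. In the FA core complex 6 of 14 genes were lower and 2 higher without glucose, and 0 were lower with it, against 24.5%, 24.2% and 13.3% of all genes. The difference was called for FANCB (-1.09 ± 0.26) and, in the opposite direction, FANCE (0.56 ± 0.12), 1 gene each way, against 6.54% of all genes below 0 and 4.73% above. FANCM, the translocase that brings the core complex to DNA, had effects of -0.44 ± 0.16 with glucose and -1.15 ± 0.16 without, and its difference missed the threshold (adjusted p = 0.0591). FANCI and FANCD2, the clamp that is ubiquitinated in the pathway, had differences of -0.02 ± 0.11 and -0.20 ± 0.12, not called. Of the 13 genes of the clamp and its nucleases, 3 were called below 0 and 1 above. SLX4, the nuclease scaffold (chr16:3581181-3611606), was at 47.2, 34.5 and 34.1 CPM in KMT2D-WT and 10.5, 17.9, 13.7 and 12.8 CPM in KMT2D-KO cells without glucose, with no overlap, and at 50.7, 39.2 and 42.0 CPM and 42.0, 32.3, 34.8 and 25.97 CPM with it, with overlap (difference -1.08 ± 0.24, adjusted p = 0.0136). FAN1, an FA-associated nuclease (chr15:30890559-30943108), was at 46.8, 47.6 and 46.8 CPM and 22.9, 19.7, 24.7 and 25.1 CPM without glucose and at 43.4, 50.8 and 49.4 CPM and 38.1, 38.1, 47.9 and 44.9 CPM with it, and was the 1 gene of the list retained (difference -0.87 ± 0.12, adjusted p = 0.00119). EME1, a nuclease subunit, had a difference of -0.71 ± 0.17, while that of its partner MUS81 was 0.43 ± 0.10.

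Genes that resolve recombination intermediates and bypass lesions had median differences further below 0 than the other repair lists, -0.44 over 10 dissolvasome and RecQ helicase genes and -0.45 over 10 translesion polymerases and POLQ. In the first list 4 genes were called below 0 and none above (6.54% and 4.73% of all genes). Of that list, 7 were lower in KMT2D-KO cells without glucose against 2 with it, where the shares of all genes were 24.5% and 13.3%. With the libraries labelled KO2 alone 6 genes of the first list were called below 0 and none above. In the second list that fit called 3 below and 1 above. No gene of either list was called with the close pairs summed. GEN1, a Holliday junction resolvase, had a difference of -1.31 ± 0.36, lost in 10 of 14 fits with 1 library left out. Its KMT2D-WT libraries without glucose were at 43.8, 114 and 109 CPM and its KMT2D-KO libraries at 16.7, 8.64, 25.9 and 27.0 CPM, so that the groups did not overlap although the experiments differed. RECQL5, a helicase, had an effect of 0.23 ± 0.12 with glucose and was lower without it (-0.70 ± 0.12), and RMI2, a dissolvasome subunit, was lower only without glucose (-0.72 ± 0.09). TOP3A, its topoisomerase, was lower in both conditions, -0.31 ± 0.10 and -0.84 ± 0.10. POLH, a translesion polymerase, was lower in both and further without glucose (-0.60 ± 0.10 and -1.45 ± 0.10, difference -0.85 ± 0.14, adjusted p = 0.00373), as was REV3L, the catalytic subunit of polymerase ζ (-0.53 ± 0.16, adjusted p = 0.0482), whose call was lost in 11 of 14 fits with 1 library left out, with the offsets for length and GC content and in experiment 2 alone, whereas the difference of POLQ, the polymerase of theta-mediated end joining, was -0.61 ± 0.21 (adjusted p = 0.0810).

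ATR, the kinase that answers stalled replication, was at 53.4, 97.8 and 95.1 CPM in KMT2D-WT and 23.3, 31.4, 63.2 and 65.2 CPM in KMT2D-KO cells without glucose. Levels differed between experiments, and within each one both KMT2D-KO libraries were below KMT2D-WT. With glucose it was at 45.7, 94.8 and 93.4 CPM and 47.8, 48.4, 88.7 and 96.3 CPM, and the difference was -0.75 ± 0.15 (adjusted p = 0.0102). Its effector kinase CHEK1 moved the other way, higher in KMT2D-KO cells only without glucose (0.01 ± 0.09 and 0.79 ± 0.09, retained). TTI1, which stabilizes ATR and related kinases, and RAD17, which loads the checkpoint clamp, had differences of -0.51 ± 0.12 and -0.43 ± 0.11. Of 21 ATR, ATM and checkpoint genes 3 were called below 0 and 1 above in the pooled fit (6.54% and 4.73% of all genes). With the libraries labelled KO2 alone 5 were called below 0 and 3 above. BRCA1 was lower in both conditions (-0.45 ± 0.08 and -0.86 ± 0.08), with a difference of -0.41 ± 0.11 (adjusted p = 0.0338) that was lost in 12 of 14 fits with 1 library left out. With the close pairs summed FAN1 and CHEK1 were the repair and checkpoint genes named here that stayed called.

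**Figure D5:**
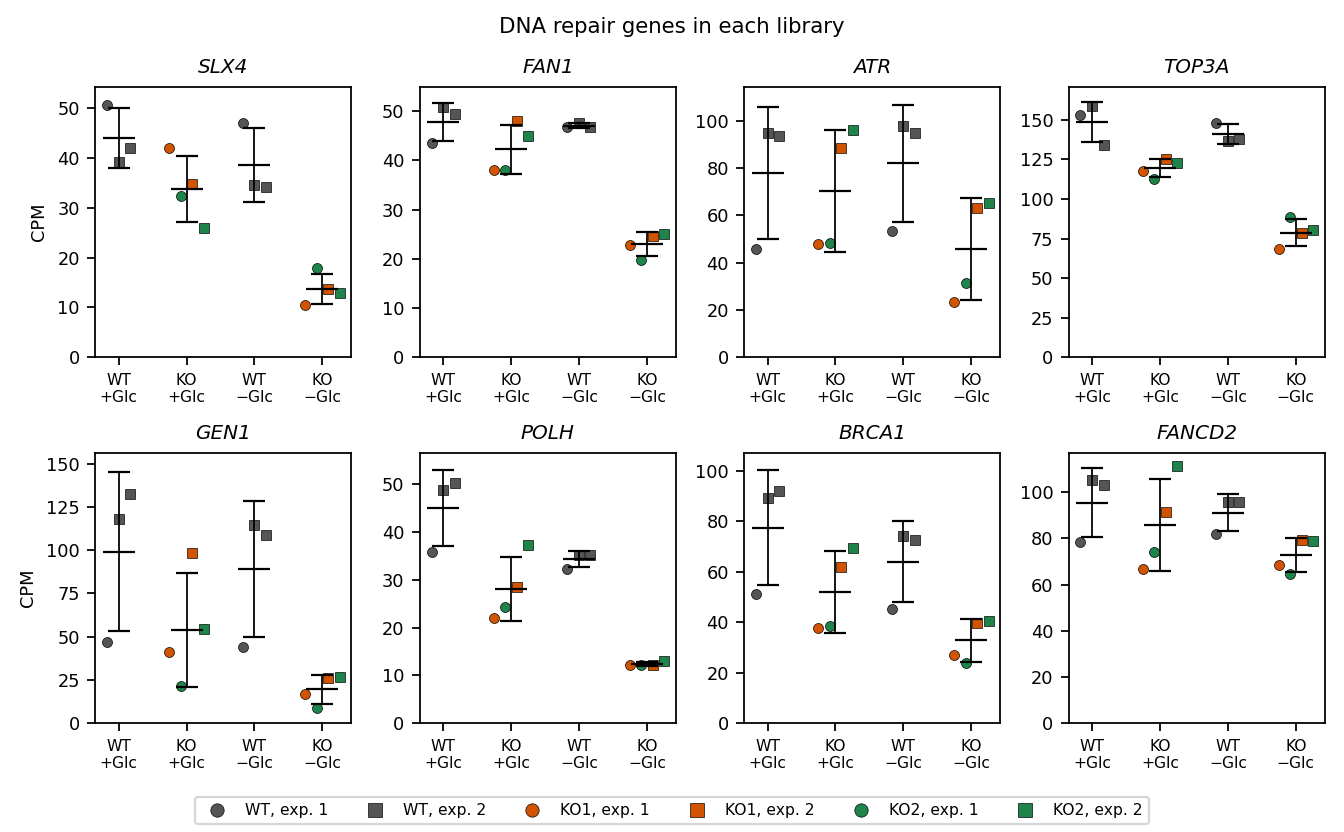
CPM of 8 DNA repair genes in each library (circles experiment 1, squares experiment 2, colours the line named in the label), with mean and SD of each group (n = 3 for KMT2D-WT, n = 4 for KMT2D-KO). In the −Glc libraries the KMT2D-KO values of SLX4, FAN1, TOP3A and POLH lie well below those of KMT2D-WT, FANCD2 values lie closer together, and ATR, GEN1 and BRCA1 differ between experiments as well.

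Of 60 genes of mitosis and G2/M 8 were called below 0 and none above (6.54% and 4.73% of all genes). The median effect of the list was -0.28 with glucose and -0.62 without. The effect itself passed as lower for 23 with glucose and 38 without, against 13.3% and 24.5% of all genes. ASPM, a spindle pole protein (-0.86 ± 0.14), GTSE1, a microtubule-binding protein (-0.83 ± 0.12), ESPL1, the protease separase (-0.90 ± 0.21) and KNL1, a kinetochore scaffold (-0.65 ± 0.12), were among the 8, and ASPM and GTSE1 were retained. DNA replication genes went both ways, with 6 of 59 called above 0 and 1 below, against 4.73% and 6.54% of all genes. With the libraries labelled KO2 alone 6 were called above 0 and 12 below. The median difference of this list was 0.09 in the pooled fit and -0.026 with the libraries labelled KO2 alone, so its direction was not settled. CDT1, the origin licensing factor, was at 199 ± 27.5 CPM (SD, n = 4) in KMT2D-KO and 95.5 ± 19.6 CPM (SD, n = 3) in KMT2D-WT cells without glucose and at 109 ± 14.5 and 123 ± 6.88 CPM with it (difference 1.18 ± 0.15, adjusted p = 7.42e-04, retained). MCM4, of the replicative helicase, and RFC1, of the clamp loader, had differences of 0.49 ± 0.13 and 0.52 ± 0.13, opposite to GINS1.

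The KMT2D-KO effect on glycolytic genes was tested for a difference by glucose in the same way. Of 26 genes of middle and lower glycolysis and lactate handling, 15 were higher and 5 lower without glucose, and 6 were higher and 3 lower with it. Over all genes 24.2% were higher and 24.5% lower without glucose, and 14.8% and 13.3% with it. Of the list 5 had a called difference, all above 0 (4.73% of all genes). These were PKM (0.44 ± 0.13), PFKP (0.45 ± 0.12), BSG, the chaperone of lactate transporters (0.54 ± 0.11), GAPDH (0.41 ± 0.12) and GPI (0.37 ± 0.11), and none was called with the close pairs summed. LDHB, a lactate dehydrogenase subunit, was higher in both conditions (1.41 ± 0.14 and 1.30 ± 0.14), as were PGK1 (0.78 ± 0.08 and 1.05 ± 0.08) and SLC16A1, a lactate transporter (0.62 ± 0.08 and 0.51 ± 0.08), and the differences of -0.11 ± 0.19, 0.28 ± 0.11 and -0.11 ± 0.11 did not pass. ENO1 (0.34 ± 0.11, adjusted p = 0.0574), GCLC, of glutathione synthesis (0.51 ± 0.30), HK2 (0.05 ± 0.32) and HKDC1 (-0.43 ± 0.49) did not pass either. Among 10 glucose transporters and hexokinases HK1 was the called gene, higher in KMT2D-KO cells only without glucose (-0.17 ± 0.07 and 0.28 ± 0.07).

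Of the lists plotted, cytosolic ribosomal proteins held the most called genes. Of 84 measured genes 68 were higher in KMT2D-KO cells with glucose and 80 without (14.8% and 24.2% of all genes), and none was lower in either. Of the list, 29 were called above 0 and 1 below (4.73% and 6.54% of all genes). The median effect was 0.50 with glucose and 0.90 without. RPL13A went from 610.4 ± 68.3 to 903 ± 150.0 CPM with glucose and from 494 ± 227 to 1218 ± 460.3 CPM without (KMT2D-WT to KMT2D-KO, SD, n = 3 and n = 4, difference 0.63 ± 0.13), and RPL10A and RPL22L1 had differences of 0.53 ± 0.10 and 0.71 ± 0.15. RPL36A was the member below 0 (-0.84 ± 0.18). No ribosomal protein gene was called with the close pairs summed, and 40 were called above 0 with the libraries labelled KO2 alone. Nuclear genes of oxidative phosphorylation had 68 of 71 estimates above 0 and 1 call, COX6B1 (0.42 ± 0.12). Ribosomal protein genes have many processed pseudogenes, so part of their reads may be divided among copies. No member was called of 19 circadian clock genes or 36 replication-dependent histone genes, against 11.3% of all genes.

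The classes differed in other features as well. Of the genes lower in KMT2D-KO cells only without glucose and given a biotype by GENCODE 44, 16.8% were long noncoding RNAs (103 of 613), and of those reversed with a difference below 0 27.8% (15 of 54), against 0.709% of the genes higher only without glucose (3 of 423) and 6.71% of all tested genes (1061 of 15815). A biotype was found for 613 of the 832 genes lower only without glucose and for 423 of the 442 higher only without glucose. The median over genes of the mean CPM was 6.37 for the genes lower only without glucose, 56.3 for those higher only without glucose and 10.7 for all. This mean includes the KMT2D-KO −Glc libraries, which the sorting itself makes lower in the first class and higher in the second. Longer genes had lower differences. Over 5 bins of exonic length with like numbers of genes the median difference went from 0.09 in the shortest (53 to 1533 bases) to -0.07 in the longest (7573 to 205012 bases), while the share called below 0 went from 2.86% to 8.54% and the share called above 0 from 2.30% to 4.58%. The trend was present in experiment 1 (0.11 to -0.17) and smaller in experiment 2 (0.08 to -0.0027). An offset for length in the fit narrowed it to 0.03 and -0.02 and left 2259 genes called, 95.6% of the 2105 among them.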

How the data were processed

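Gene-level counts of 14 RNA-seq libraries were used as the authors deposited them, one table per library. The authors aligned reads with HISAT2 to hg38 (GRCh38) and counted them per gene with featureCounts 2.0.3 with the Ensembl 102 gene models. Strand was ignored, and 4 libraries had each mate of a pair counted, as the header lines record. CPM values were computed from these counts. Genes passing the edgeR expression filter (minimum count 10) were scaled by TMM and fitted with the quasi-likelihood model of edgeR 4.0.16 in R 4.3.3. The design had 1 term for each of the 4 combinations of glucose and experiment and a KMT2D-KO effect for each glucose condition, leaving 8 residual degrees of freedom. The contrast of both effects was tested, with Benjamini-Hochberg adjustment over all genes and a limit of 0.05. A gene passed in a condition when its KMT2D-KO effect there had an adjusted p under 0.05. The code was tested on simulated data. The study's methods name DESeq2 and give no design formula. DESeq2 1.42.0 with and without the experiment term was run as an alternative.

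Named were KMT2D, up to 5 called genes per class and direction with the largest absolute difference, a mean of at least 5 CPM in 1 group and the same sign in both experiments, up to 4 called genes per list described, and a set of genes that the study assayed by qRT-PCR. Some results that these rules would name are not reported here. Other called members, given to complete a count, were named after their values were seen. The members and lists were chosen with earlier results of these data known. Positions are those of GRCh38, and biotypes came from GENCODE 44, found for 15815 of the 18678 genes (84.7%). Promoters came from the RefSeq table, which held 8048 of the tested genes. Alternatives were another scaling, tool, filter, block, library set, halved counts and offsets for length and, chosen after the data were seen, for GC content. Leaving out both experiment 2 libraries labelled KO1 was also chosen after the data were seen.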

Additional observations from a re-analysis of the deposited data

Results flagged for a closer look

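Each group of 4 KMT2D-KO libraries was searched for a library far from the other 3 in the 113 named genes, in 226 sets of values, and 16 stood apart. For 4 independent libraries of like spread chance would give about 1 in 20 sets. These groups mix lines and experiments, and the −Glc group holds a close pair, so that rate need not hold here. Without glucose the highest library stood apart for CCN1 (3781 CPM), CCN2 (767 CPM), FOXD2-AS1 (2.57 CPM), TIGD1 (4.01 CPM), DNAJB1 (1416 CPM), PPP1R15A (945 CPM), POLH (12.9 CPM), GINS1 (33.0 CPM) and RPL22L1 (204.5 CPM). The lowest library stood apart for KLF4 (109.8 CPM), HSPA5 (654 CPM) and JAG1 (95.3 CPM). With glucose the highest library stood apart for KRT16 (3.48 CPM), HKDC1 (4.71 CPM) and XBP1 (68.9 CPM), and the lowest for HOXD9 (7.004 CPM).

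The KMT2D-KO effect differed between the glucose conditions, by the test of the difference itself, for 34 of the genes named by class or among those that the study assayed by qRT-PCR, without EME1 and POLH, which were named as list members. Among genes higher or lower only without glucose these were TUFT1 (2.65), KRT17 (2.60), CCN1 (2.54), GDF15 (2.47) and KRT16 (2.34) above 0, and FOXD2-AS1 (-3.00), HOXB-AS3 (-2.97), GVQW3 (-2.42), YPEL4 (-2.37) and HOXB6 (-2.25) below. Among genes changed only with glucose these were KRT16P6 (1.68), MISP (1.63), KRT14 (1.59) and MAFF (1.23) above 0, and CYP2R1 (-2.75), SNHG4 (-1.74), OGFRP1 (-1.60), ICOSLG (-1.52) and SNHG19 (-1.41) below. Reversed genes were CCN2 (2.67), DUSP1 (2.34), PPP1R15A (2.19), GADD45B (1.81) and PTHLH (1.71) above 0, and TMEM147-AS1 (-2.18), RBM12B (-1.95), PRR7-AS1 (-1.80) and TIGD1 (-1.71) below. The repair genes were FAN1 (-0.87), REV3L (-0.53), BRCA1 (-0.41), TOP3A (-0.54), ATR (-0.75) and SLX4 (-1.08). All values are log2 differences, without minus with glucose.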

How the results depend on the processing

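The number of genes with a called difference was 2105, of which 1274 passed only without glucose, 201 only with glucose and 104 reversed. RLE scaling gave 2285 genes, the stricter filter 1837, no filter 2433, experiment 2 alone 2492, the libraries labelled KO1 2210, halved counts 2113, the length offset 2259 and the GC offset 2144. RLE scaling moved the median difference of all genes from -0.0021 to 0.03, and the share of calls above 0 from 42.0% to 50.7%. DESeq2 with the same design called 3473 genes, 375 only with glucose and 183 reversed, and 52.0% of its calls were above 0. The libraries labelled KO2 gave 4349 genes, with 641 only with glucose and 347 reversed. Experiment 2 alone gave 165 reversed genes, and experiment 1 alone gave 0 in all of these counts. With the close pairs summed there were 258 genes, of which 190 passed only without glucose, 9 only with glucose and 21 reversed. Without both experiment 2 libraries labelled KO1 there were 583, with 398, 33 and 38. With a difference of at least 1.5-fold in addition, 125 genes passed only with glucose. With 1 library left out the counts ranged from 788 to 4230 for the difference, 482 to 2170 only without glucose, 61 to 505 only with glucose and 38 to 279 reversed. The lowest counts for the difference and only without glucose followed from leaving out the KMT2D-WT −Glc library of experiment 1, the lowest only with glucose and reversed from leaving out the KMT2D-WT +Glc library of experiment 1, and the highest of each from leaving out the KMT2D-KO −Glc library of experiment 1 labelled KO1. The cause of these changes was not tested.

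The experiment term is the block in this design, since the labels give the experiment of each library, and the replicate numbers pair nothing beyond it. Without the block edgeR called 70 genes, of which 62 passed only without glucose, 1 only with glucose and 3 reversed, and all 70 were among the 2105. DESeq2 without the block called 591, with 412, 41 and 17.

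All 101 called named genes had the same sign with the libraries labelled KO2, which are also part of the pooled fit. Among other named genes, the call was lost in 11 of 14 fits with 1 library left out for GAPDH, in 10 for COX6B1, HSPH1, MAML2, PKM and RAD17, in 9 for KLF5 and PFKP and in 8 for MCM4, OVOL1, RFC1 and TOP3A. Of the 12 named genes that were not called, KMT2D, PGK1, GCLC, ENO1, FANCM, POLQ and FANCD2 kept their sign in every setting. With the libraries labelled KO2 alone FANCM, POLQ, FANCD2, GCLC and KMT2D were called. FANCI, HK2, SLC16A1, HKDC1 and LDHB changed sign. FANCI was at 0.017 with RLE scaling, 0.018 with DESeq2, 0.0095 with DESeq2 and no block, 0.046 in experiment 2 and 0.047 with the length offset, and between -0.060 and 0.043 with 1 library left out. HK2 was at -0.0053 with the stricter filter, -0.31 in experiment 1, -0.30 with the libraries labelled KO1, -0.024 with the close pairs summed and -0.043 without both experiment 2 libraries labelled KO1, and between -0.17 and 0.26 with 1 library left out. SLC16A1 was at 0.0043 in experiment 2. HKDC1 was at 0.078 in experiment 2, 0.0021 with the libraries labelled KO2 and between -0.79 and 0.033 with 1 library left out. LDHB was at 0.031 with the libraries labelled KO1 and between -0.22 and 0.016 with 1 library left out. Depth limits the low genes most, such as CYP2R1 and ZNF546, which lay near 1 CPM in several groups of libraries of 15669154 to 62968057 counts.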

Other observations

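Other gene groups held called members too, named here after their values were seen. IL6, an inflammatory cytokine, had a difference of 2.28 ± 0.24, and TNFAIP3, which restrains NF-κB, reversed from -0.54 ± 0.12 with glucose to 0.50 ± 0.12 without. CSF1, a macrophage growth factor, had a difference of -1.33 ± 0.25. Ferritin chains FTH1 and FTL, which store iron, and NFE2L2, the regulator of antioxidant genes, were higher in KMT2D-KO cells only without glucose, with differences of 1.05 ± 0.12, 0.69 ± 0.15 and 0.89 ± 0.19. GADD45A, a stress-induced growth arrest gene (1.63 ± 0.16), ERRFI1, a feedback inhibitor of EGFR (1.41 ± 0.24), and PI3, the elastase inhibitor elafin (2.57 ± 0.67), were in the same class. PMAIP1, the proapoptotic protein NOXA, reversed (-0.49 ± 0.11 and 0.50 ± 0.11). Of 30 targets of the hypoxia-inducible factors 4 were called above 0 and 2 below (4.73% and 6.54% of all genes). ADM, which encodes adrenomedullin, was at 1.57 ± 0.37 and ANGPTL4, an inhibitor of lipoprotein lipase, at -2.05 ± 0.48.

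Among chromatin regulators KDM6A, a demethylase that shares complexes with KMT2D, was higher in KMT2D-KO cells only without glucose (0.20 ± 0.23 with glucose and 1.33 ± 0.23 without), and EED, a Polycomb subunit, was lower only without glucose (0.24 ± 0.12 and -0.62 ± 0.12). CBX2, another Polycomb protein, reversed from 0.49 ± 0.15 to -0.72 ± 0.15. Of 23 KMT2 and COMPASS genes 2 were called above 0 and 0 below (4.73% and 6.54% of all genes). Collagens, integrins and transcription factors of mesenchymal transition gave calls on both sides, with THBS1, a matrix glycoprotein, at 1.37 ± 0.17 and ITGA5, the fibronectin receptor chain, at -1.43 ± 0.42. With the close pairs of experiment 2 summed, IL6, TNFAIP3, FTH1, GADD45A, ERRFI1, PMAIP1, CBX2 and THBS1 stayed called, and the other genes named here were called with the libraries labelled KO2 alone but not with those pairs summed.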
